A study of Mus musculus with 4 samples.

Results

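The genes described here carry glucose into the cell, break it down to pyruvate, and either turn pyruvate into lactate or admit it to the mitochondrion. They were taken from a list of 34 genes of glycolysis, lactate and pyruvate handling. A gene was included where the array's annotation gave it at least 1 probe set of its own, with Affymetrix control probe sets left out, and 29 of the 34 were, with 56 probe sets, out of 12393 genes in all. Gpi1, Eno1, Pfkfb1, Pfkfb4 and Gapdh had no such probe set. RNA was measured on Affymetrix expression arrays in neural stem cell cultures from the ganglionic eminences, the ventral zones of the embryonic forebrain, of mouse embryos at embryonic day 14.5 on a C57/Bl6 background, grown without serum and with EGF. The groups were wild type, with 1 array, and Olig1 KO, with 3 arrays, called KO replicates 1, 2 and 3. Values are MAS5 signals, the linear brightness of a probe set. Olig1 encodes a transcription factor of the oligodendrocyte lineage, and the labels name no other allele and no treatment. The labels do not describe the KO allele, nor do they state that each KO sample is its own embryo or culture. Every p-value therefore reflects the spread of these samples alone, and that spread may be technical.

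Glycolysis starts when glucose transporters admit glucose and hexokinase traps it as glucose 6-phosphate. Phosphofructokinase commits the sugar to breakdown, the lower enzymes harvest ATP and NADH, and pyruvate kinase yields pyruvate. Lactate dehydrogenase turns pyruvate to lactate, which leaves through monocarboxylate transporters, while the pyruvate dehydrogenase complex feeds it to the citrate cycle unless pyruvate dehydrogenase kinases switch the complex off. Neural stem cells are known for a high glycolytic rate, and the hypoxia-inducible factor HIF-1 is known to activate many of these genes when oxygen is low.

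The cultures expressed neural stem cell genes. All 7 measured markers (Sox2, Nes, Pax6, Vim, Fabp7, Sox9 and Egfr) were above background in all 4 arrays. An array's background was taken as the brightest of its 27 bacterial controls without a target, which ran from 21.3 in KO replicate 1 to 87.8 in KO replicate 3. The 7 stem cell markers had a summed signal of 35809 to 55902, against 5845 to 6905 for 6 astrocyte markers. Aldoc, shared with the genes described here, gave 2966 to 3702 of the astrocyte sum. Fabp7 and Vim made up most of the stem cell sum, while Nes (1719 against 1838, 1666 and 846), Pax6 (293 against 402, 345 and 133) and Sox9 (288 against 297, 239 and 109) were lowest in KO replicate 3. The summed signal of 7 neuronal markers was 1158 to 1744 in the KO arrays and 2156 in wild type. Of the 7, 4 were above background in all arrays, and Eno2 is shared with the genes described here. Map2 made up most of the sum, at 1766 in wild type against 1447, 784 and 593 in KO replicates 1, 2 and 3. Tubb3 (46.9 against 63.3, 61.9 and 92.0), Syt1 and Eno2 were dim but above wild type in all KO arrays, Syt1 at background in KO replicate 3. Dcx, Stmn2 and Snap25 were above wild type in some KO arrays but not all. The summed signals of red blood cell, endothelial, microglial, muscle, mesenchymal and oligodendrocyte markers stayed between 27.05 and 389.9 in every array, and 2 of 4 oligodendrocyte markers were at background in all 4. The muscle markers Eno3 and Pgam2 are also among the genes described here. Olig1 itself gave 7618 in wild type against 3840, 4438 and 8548 with KO, so its probe set did not separate the labels, and the position of that probe set relative to the deleted part is not known here.

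By Xist, spiked-in controls and 18S ribosomal RNA the arrays grouped as wild type with KO replicate 1 and KO replicate 2 with KO replicate 3, which touches every result below. Xist, the RNA of the inactive X chromosome, read 9480 in wild type and 8472 in KO replicate 1, but 160.9 and 46.5 in KO replicates 2 and 3. Spiked-in control transcripts were at 0.898, 1.89 and 2.75 times the wild-type level (median ratio of 18 probe sets) in KO replicates 1, 2 and 3. For 18S ribosomal RNA the 3 control sets had a median of 4.64 in wild type and 7.24, 946 and 2823 in KO replicates 1, 2 and 3. The beta-actin 3'/5' ratio, which grows as RNA degrades, ran from 1.11 for wild type to 1.82 for KO replicate 3. The only comparison of genotypes within a pair is therefore that of 2 single arrays, wild type and KO replicate 1. The part of these array differences in the results was not tested.

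None of the listed genes passed the genotype test. Signals were turned to log2(signal + 14.4), 1 probe set was used per gene, and the 7436 brighter genes were tested with limma. The adjusted p of every tested gene of the list was 0.99997. Of the 29 genes, 24 passed this filter on low values, 0 were called at an adjusted p under 0.05, as were 0% of all genes, and 1 of the 24, Pfkfb3, had an unadjusted p under 0.05, against 2.26% of all genes in either direction and 0.941% lower in KO. Over all genes that number rose without KO replicate 1 or 3, and fell without KO replicate 2 or with array pairs as a block. The number of the list rose without KO replicate 1 or 3 or with that block, and fell without KO replicate 2. It was 0 after quantile normalization, without the filter or with each gene's probe sets averaged. The KO mean was below wild type for 21 of the 24, against 50.1% of all genes. All 3 KO arrays were below the wild-type array for 10 of the 24 genes, against 20.6% of all genes, and above it for 1, against 23.2%. The number below was 8 after centring each array on its median, without Dlat and Pdk3, against 18.4% of all genes. It was 12 after quantile normalization, with Ldha, Ldhb and Pdhb added and Pdk3 lost, against 19.1% of all genes. Over the 24 genes the log2 differences had a median of -0.26, against -0.00014 over all genes. Counted over all 56 probe sets, dim ones included, 21 had all KO arrays below wild type and 2 above, against 20.9% and 24.9% of all probe sets. Without KO replicate 3, 20 of the 24 genes were below wild type in both other KO arrays, against 28.6% of all genes. Without KO replicate 1, 10 of the 24 were below in both others, against 34.9% of all genes, 3 were above, against 35.7%, and the median was -0.07. Since whole cultures were measured, fewer cells of a type and less RNA per cell cannot be told apart.

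**Figure D1:**
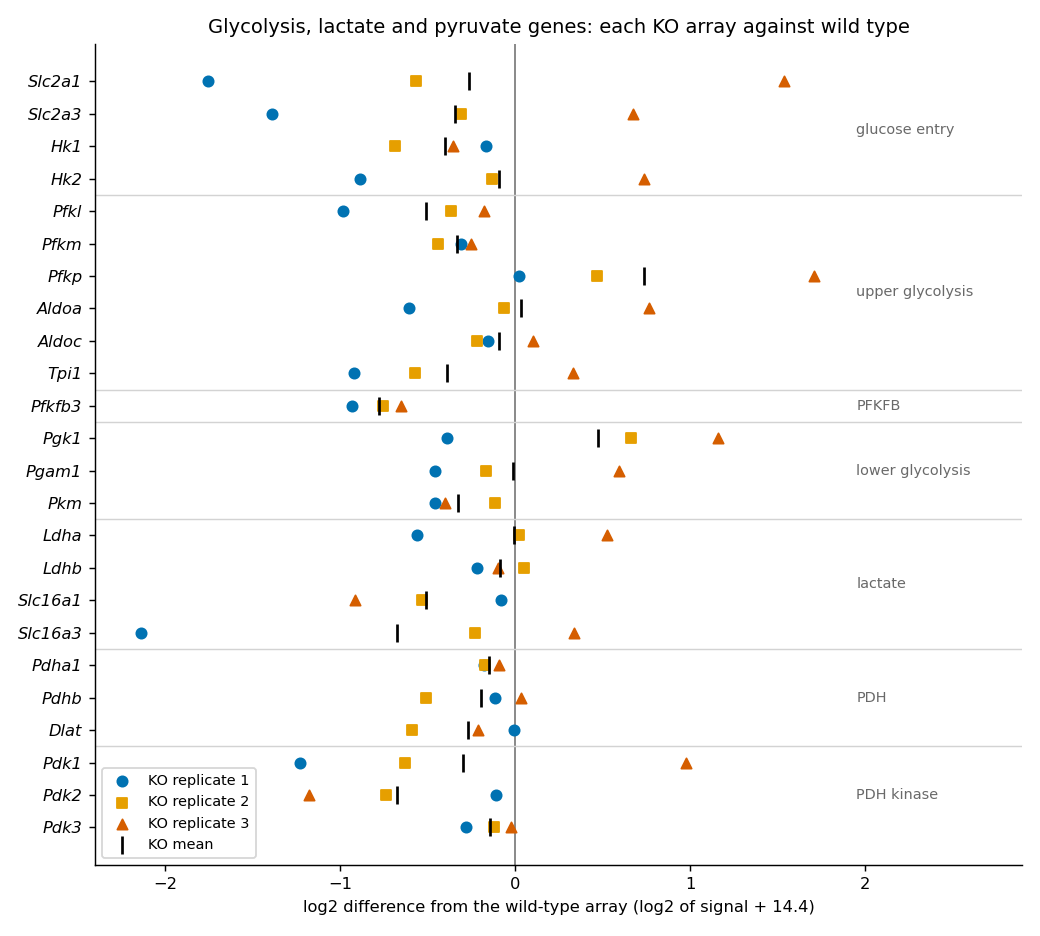
The horizontal axis is the log2 difference of each KO array from the wild-type array, on the log2(signal + 14.4) scale, for the 24 genes tested, in groups by role. Circles, squares and triangles are KO replicates 1, 2 and 3 and the bar is the KO mean. KO replicate 1 lies left of 0 for 23 of the 24 genes, and for Slc2a1, Slc2a3, Slc16a3 and Pdk1 it lies more than 1 unit to the left.

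The KO arrays were spread widely for many of these genes. KO replicate 1 was below the wild-type array for 23 of 24 genes, against 46.5% of all genes, with a median log2 difference of -0.42. KO replicate 2 was below it for 20, against 3565 of all 7436 genes, with a median of -0.27. KO replicate 3 was above it for 13 (54.2%), near the 48.7% of all genes, and below it for 11, with a median of 0.07. The SD over the 3 KO arrays had a median of 0.48 for the 24 genes against 0.27 for all genes. Without KO replicate 1 the mean difference turned from below to above 0 for 7 genes, Slc2a1, Slc2a3, Hk2, Pgam1, Ldha, Slc16a3 and Pdk1. The 10% of genes with the largest SD held 9 of the 24: Slc2a1, Slc2a3, Hk2, Pfkp, Aldoa, Tpi1, Pgk1, Slc16a3 and Pdk1.

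**Figure D2:**
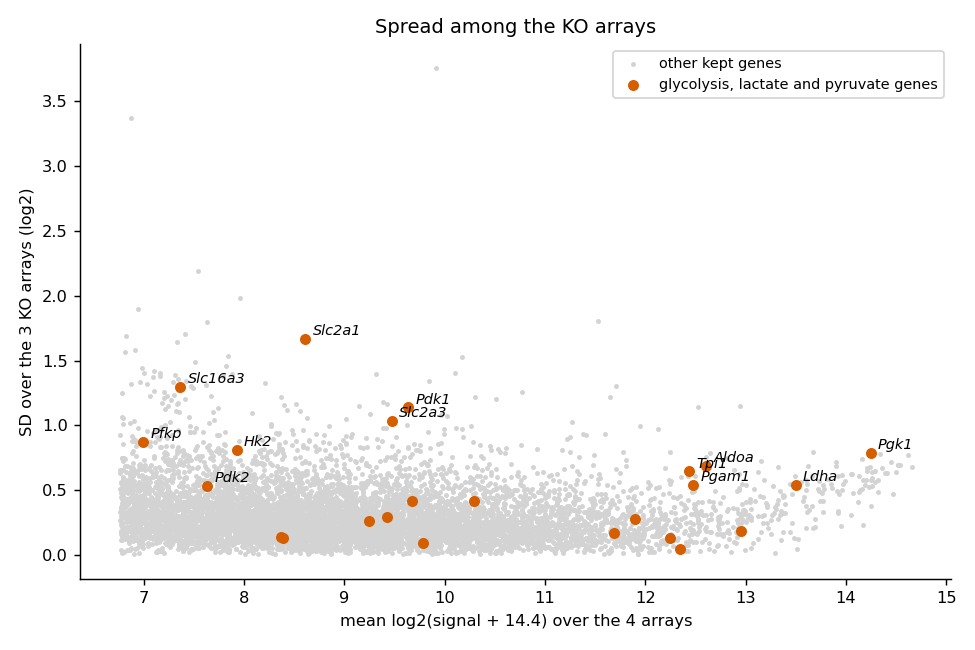
Each point is a tested gene, with its mean log2(signal + 14.4) over the 4 arrays on the horizontal axis and its SD over the 3 KO arrays, in log2 units, on the vertical axis. Orange points are the 24 glycolysis, lactate and pyruvate genes. Slc2a1 is highest among them at 1.67, and Pdha1 lowest at 0.05.

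Of the groups by role, glucose entry had the largest median SD over the KO arrays, at 0.92, though its gene Hk1 was at 0.26. Outside it, Slc16a3 (1.30) and Pdk1 (1.14) exceeded Slc2a3 (1.03) and Hk2 (0.81). Slc2a1 encodes GLUT1, the general glucose transporter of brain cells. Its brightest probe set gave 434 in wild type against 118, 288 and 1286 in KO replicates 1, 2 and 3. The wild-type array thus lay inside the range of the KO arrays, of which KO replicate 3 was 10.9 times KO replicate 1. The mean log2 difference from wild type was -0.26 with an SE of 1.06, and its sign rested on 1 array: it was 0.49 without KO replicate 1 and -1.16 without KO replicate 3. Its second probe set gave 367 against 139, 236 and 404, and another 301 against 118, 119 and 412, so KO replicate 1 was lowest and KO replicate 3 highest with all 3 probe sets.

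Slc2a3 encodes GLUT3, the high-affinity glucose transporter of neurons. Its brightest probe set, marked for possible cross-hybridization, gave 835 in wild type against 309.7, 672 and 1344 in KO replicates 1, 2 and 3. A second, also so marked, gave 357 against 118, 322 and 932, with the same order of the arrays. The 2 dimmer probe sets differed from these in KO replicate 3, where both were at background. One gave 127 against 7.38, 71.7 and 9.46, with KO replicate 1 also at background. The other gave 78.8 against 31.5, 33.0 and 12.9, with KO replicate 2 also at background. The probe sets of Slc2a3 thus disagree on KO replicate 3, while in all 4 KO replicates 1 and 2 were below wild type.

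Both hexokinase genes were below wild type in KO replicates 1 and 2. Hk2, the inducible hexokinase, gave 241 in wild type against 124, 219 and 412 in KO replicates 1, 2 and 3, so wild type again lay inside the KO range. Hk1, the constitutive hexokinase, gave 736 in wild type against 653, 452 and 572 with KO. All KO arrays were below wild type and the log2 difference was -0.40 (SE 0.34). The second probe set of Hk1 also had all KO arrays below wild type, at 374 against 273, 118 and 254.

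In upper glycolysis, the phosphofructokinase genes differed among themselves. Pfkl, the liver-type subunit, gave 1615 in wild type against 812, 1251 and 1425 in KO replicates 1, 2 and 3, a log2 difference of -0.51 (SE 0.39). Its second probe set gave 947 against 494, 784 and 1013, so KO replicate 3 was not below wild type there. Pfkm, the muscle-type subunit, gave 1032 against 831, 757 and 864, all below wild type and close together, a log2 difference of -0.33 (SE 0.30). Pfkp, the platelet-type subunit, was the 1 gene of the 24 above wild type in all 3 KO arrays, but in KO replicate 1 only by 0.02 log2 units. It gave 72.7 in wild type against 74.2, 106 and 271 with KO, a log2 difference of 0.73 (SE 0.61), which was 0.25 without KO replicate 3. The second Pfkp probe set was above background only in KO replicate 1, at 23.1.

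The brightest probe sets of the aldolases and triose phosphate isomerase gave high signals in every array. Aldoa, the main aldolase, gave 6106 in wild type against 4012, 5853 and 10403 in KO replicates 1, 2 and 3. KO replicate 1 was lowest with all 4 of its probe sets, each marked for cross-hybridization, and KO replicate 3 was highest with 3 of them. With the remaining one, wild type was highest, at 4609 against 3208, 3629 and 4422. Aldoc, the brain-type aldolase, gave 3448 against 3097, 2966 and 3702, with wild type inside the KO range, a log2 difference of -0.09. Its second, dim probe set gave 97.6 against 89.2, 19.7 and 64.7, the last 2 at background, and the mean over both put Aldoc at -0.43. Tpi1, which interconverts the triose phosphates, gave 6763 against 3563, 4544 and 8529, a log2 difference of -0.39 (SE 0.49). That probe set was marked for possible cross-hybridization, and with such probe sets left out the difference was -0.31. In the other 2 Tpi1 probe sets the arrays had the same order, with KO replicate 1 at 3089.6 and 2193, wild type at 5235 and 4584, and KO replicate 3 at 5950.5 and 6873.

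The bifunctional PFKFB enzymes set the level of fructose 2,6-bisphosphate, the strongest activator of phosphofructokinase. Pfkfb3, the isoform with the highest kinase activity, had the largest moderated t of the 24 genes. It gave 482 in wild type against 246, 280.4 and 302 in KO replicates 1, 2 and 3, or 276 ± 28.3 (SD, n = 3). The KO arrays did not overlap wild type and lay close together, the log2 difference was -0.78 (SE 0.31), and it lay between -0.84 and -0.70 when any 1 KO array was left out. The second Pfkfb3 probe set did not share this separation, at 89.2 against 38.1, 44.1 and 128, with KO replicate 3 above wild type. Pfkfb2 was left out by the filter. Its probe set with the highest mean gave 120.2 in wild type against 64.6, 52.6 and 71.4 with KO, the last at background. A second, at 71.2 against 45.3, 91.2 and 65.9, had KO replicate 2 above wild type and KO replicate 3 at background.

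In lower glycolysis, Pgk1 and Pgam1 spread widely while Pkm did not. Pgk1, the X-linked phosphoglycerate kinase, read by a probe set marked for possible cross-hybridization, gave 15133 in wild type against 11547, 23949 and 33813 in KO replicates 1, 2 and 3. The log2 difference was 0.48 (SE 0.57), or 0.02 after quantile normalization and 0.91 without KO replicate 1, and wild type lay inside the KO range. In the within-pair comparison its sign turned, with KO replicate 1 at -0.39 from wild type. The other Pgk1 probe sets gave 12308 against 10214, 14642 and 20123, and 1429 against 1058, 1346 and 2797, again with KO replicate 1 lowest and KO replicate 3 highest. Pgam1, the general phosphoglycerate mutase, gave 5710.5 against 4159.9, 5091 and 8622. Pkm, pyruvate kinase, gave 9361 against 6816, 8645 and 7089, all below wild type, a log2 difference of -0.32 (SE 0.32).

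The enolase and mutase isoforms of neurons and muscle were dim. Eno2, the neuronal enolase, gave 66.0 in wild type against 66.4, 109 and 113 in KO replicates 1, 2 and 3. Eno3, the muscle enolase, gave 72.5 against 85.5, 59.8 and 85.3, the last at background. Pgam2, the muscle mutase, was at background in all 4 arrays, with a highest signal of 17.6. Eno2, Eno3 and Pgam2 were all left out by the filter.

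Gapdh was represented only by 3 array control probe sets, for its 5' part, middle and 3' part, which were not among the genes tested. The 5' set gave 14454 in wild type against 9829, 14557 and 24012, the middle set 12813 against 9034, 14429 and 20735, and the 3' set 10971 against 7808, 14925 and 20212. All 3 had KO replicate 1 lowest and KO replicate 3 highest, and the 3'/5' ratio of Gapdh was 0.759 in wild type against 0.794, 1.03 and 0.842 with KO.

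**Figure D3:**
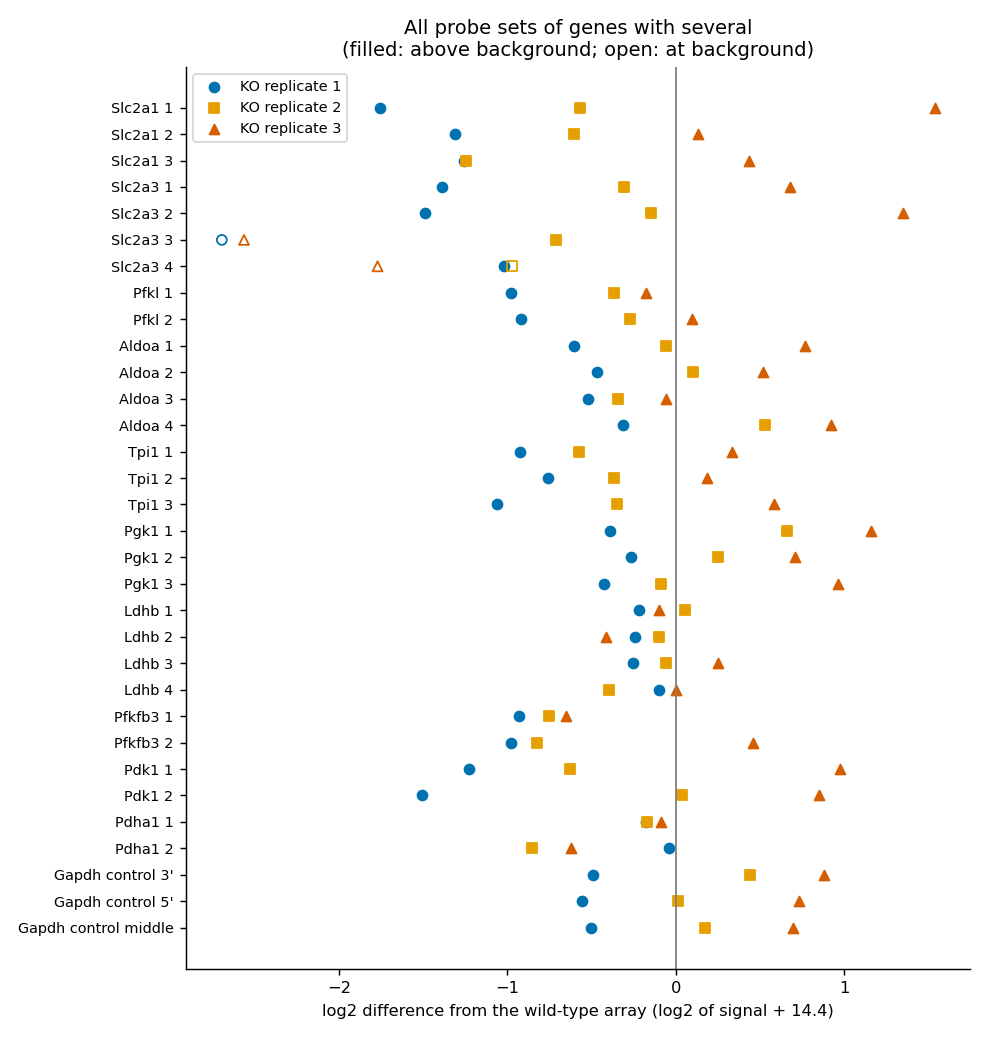
The log2 difference of each KO array from the wild-type array, on the log2(signal + 14.4) scale, is plotted for every probe set of 10 genes, numbered from the brightest, and for the 3 Gapdh control probe sets. Circles, squares and triangles are KO replicates 1, 2 and 3, and open symbols are signals at background. The 3 probe sets of Slc2a1, Tpi1 and Pgk1 each have KO replicate 1 lowest and KO replicate 3 highest, while the dimmer 2 of Slc2a3 have KO replicate 3 far to the left at background.

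The subunits of lactate dehydrogenase differed in their spread. Ldha, the subunit that favours lactate formation, gave 11578 in wild type against 7863, 11772 and 16644 in KO replicates 1, 2 and 3, so wild type lay inside the KO range and the mean log2 difference was -0.0034. Ldhb, the subunit that favours lactate use, varied little, at 5072 against 4361, 5261 and 4733, by a probe set marked for possible cross-hybridization. Its 3 other probe sets gave log2 differences of -0.25, -0.02 and -0.17, the last also so marked.

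Slc16a3 encodes MCT4, the exporter of highly glycolytic cells. It gave 220.1 in wild type against 38.9, 186 and 282 in KO replicates 1, 2 and 3. Wild type was 5.65 times KO replicate 1, while KO replicate 3 was 1.28 times wild type. The log2 difference over the 3 KO arrays was -0.68 (SE 0.84), and without KO replicate 1 it was 0.054. Slc16a1 encodes MCT1, the general lactate carrier, and went the other way among the KO arrays. It gave 1049 in wild type against 994, 721 and 549 in KO replicates 1, 2 and 3, all below wild type and lowest in KO replicate 3, a log2 difference of -0.51 (SE 0.39).

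In the pyruvate dehydrogenase complex the brightest Pdha1 probe set was steady. The SD over the KO arrays was near the middle of all tested genes for Pdhb and Dlat, at percentiles 52.0 and 54.9. Pdha1, the X-linked E1 alpha subunit, gave 5608 in wild type against 4967, 4971 and 5266 in KO replicates 1, 2 and 3, and its SD over the KO arrays was at percentile 2.7 of all tested genes. Its second probe set was less even, at 2409 against 2341, 1324 and 1561, again with all KO arrays below wild type. Pdhb, the E1 beta subunit, gave 4196 against 3881, 2946 and 4303, a log2 difference of -0.19. Its second, dimmer probe set gave 141 against 138, 133 and 182, a log2 difference of 0.07, and the mean over both put Pdhb at -0.06. Dlat, the E2 subunit, gave 774 against 772, 511 and 667 by a probe set marked for possible cross-hybridization, a log2 difference of -0.27 (SE 0.35). With such probe sets left out it was -0.52 (SE 0.44), from 720.1 against 627, 322 and 612. The remaining Dlat probe set gave 232 against 234, 148 and 153, with KO replicate 1 not below wild type. KO replicate 2 was the lowest array for Pdhb and Dlat, and KO replicate 1 lay at -0.11 and -0.003 from wild type. Centring each array on its median put Dlat in KO replicate 1 at 0.01.

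The 4 kinases that switch this complex off differed among themselves. Pdk1, a HIF-1 target, gave 914 in wild type against 381, 585 and 1810.4 in KO replicates 1, 2 and 3, and its second probe set gave 798 against 272, 818 and 1451. KO replicate 1 was lowest and KO replicate 3 highest with both. Pdk2 gave 268 against 248, 155 and 111, with KO replicate 3 lowest, a log2 difference of -0.67 (SE 0.44) that was -0.11 within the pair of wild type and KO replicate 1. Pdk3, an X-linked kinase, gave 348 against 283, 318 and 342 and varied little. After quantile normalization Pdk3 in KO replicate 3 was 0.13 above wild type. Pdk4, a kinase induced by fasting in other tissues, was left out by the filter and was above background only in the wild-type array, at 43.0, since its 56.7 in KO replicate 3 lay under that array's background.

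**Figure D4:**
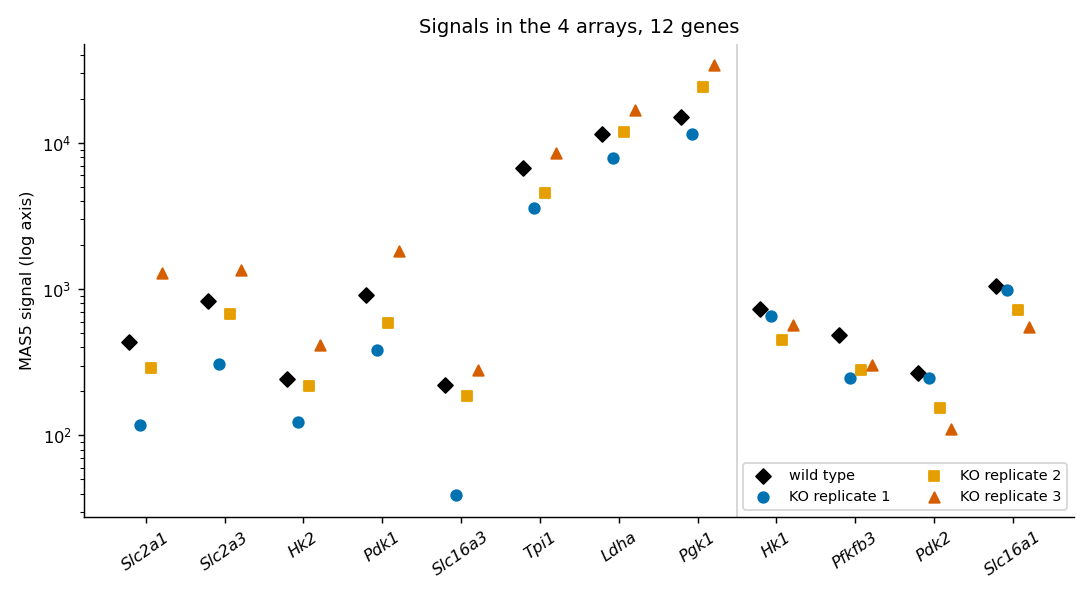
MAS5 signal on a log axis for 12 genes in the 4 arrays, with diamonds for wild type and circles, squares and triangles for KO replicates 1, 2 and 3. The 8 genes left of the line have KO replicate 1 lowest and KO replicate 3 highest, with Slc2a1 between 118 and 1286. The 4 on the right do not, and Slc16a1 and Pdk2 have KO replicate 3 lowest.

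One order of the arrays recurred across the steps of the pathway. KO replicate 1 was the lowest and KO replicate 3 the highest of the 4 arrays for 10 of the 24 genes (41.7%): Slc2a1, Slc2a3, Hk2, Aldoa, Tpi1, Pgk1, Pgam1, Ldha, Slc16a3 and Pdk1. The same order was found in 12.5% of all tested genes. The 19 cell type markers above background in all arrays include Aldoc and Eno2 of the list, and Tubb3, Eno2 and Col1a2, which were not tested. Of these 19 markers, 4 had the order too. They were Fabp7 of neural stem cells (16547 against 13667, 25380 and 34007), the astrocyte genes Aqp4 (309.5 against 121, 179 and 428) and Slc1a2 (94.3 against 74.8, 78.4 and 192), and Mbp of oligodendrocytes (173 against 53.2, 124 and 224). The part of such cells in the result was not tested. This order was singled out after the values were seen, so the count is a description. KO replicate 3 was the highest array for 13 of the 24, against 29.3% of all genes. It was at least 2-fold above KO replicate 1 for 11 of the 24 genes, on the log2(signal + 14.4) scale, against 4.01% of all genes, and KO replicate 1 was at least 2-fold below wild type for 4 (Slc2a1, Slc2a3, Slc16a3 and Pdk1), against 1.09%.

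The order was also counted by brightness and after another scaling. Among all tested genes with a mean log2 value of at least 12, 46.1% had it in the values as deposited, and their median log2 difference of KO replicate 3 from KO replicate 1 was 0.51. The 8 list members that bright had it 5 times, with a median difference of 1.06. After quantile normalization, which gives every array the same distribution, the share was 19.3% of bright genes and 4 of the 8 members, with medians of 0.00 and 0.40. The 16 dimmer members had it 5 times as deposited and 6 times after quantile normalization, against 10.5% and 13.4% of the dimmer genes. Over the 24, the number was 10 after quantile normalization too, against 13.8% of all genes, with Pdk3 added and Ldha lost, since Ldha in KO replicate 3 turned from 0.52 above wild type to -0.12. For Slc2a1, Slc2a3, Hk2, Slc16a3 and Pdk1, the log2 difference of KO replicate 3 from KO replicate 1 was between 1.71 and 3.32 after quantile normalization.

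The other HIF-1 targets, listed apart from glycolysis, were given the same count. Of 16 genes listed, 14 were measured and 12 tested, and 11 of the 12 had KO replicate 1 lowest and KO replicate 3 highest, both as deposited and after quantile normalization. The shares of all genes were 12.5% and 13.8%. The order was singled out after the values were seen and the list was chosen with earlier results of these data known, so this count too is a description. None passed the limma test and 0 had an unadjusted p under 0.05. In all 3 KO arrays 0 were below and 0 above wild type, against 20.6% and 23.2% of all genes. Vegfa, the vascular growth factor, gave 1339 in wild type against 478, 894 and 1778 in KO replicates 1, 2 and 3. Egln3, an oxygen-sensing prolyl hydroxylase, gave 737 against 243, 453 and 922. Adm, the vasodilator peptide adrenomedullin, was the exception among the 12, at 1227 against 838, 1485 and 951. Car9 and Car12 were measured but left out by the filter. Car9 lacked the order and was above wild type in all KO arrays, at 51.0 against 74.6, 88.9 and 95.3. Car12 had the order, at 63.4 against 42.8, 48.9 and 97.1. The median log2 difference from wild type of the 12 genes was -1.16, -0.15 and 0.78 in KO replicates 1, 2 and 3.

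In neighbouring pathways this order was found in 4 of 16 citrate cycle genes tested, 0 of 6 pentose phosphate genes and 4 of 12 genes of side branches such as pyruvate carboxylation, against 12.5% of all genes. After quantile normalization it was found in 2, 1 and 4, against 13.8%. None of these passed the limma test, and 1, Suclg2, had an unadjusted p under 0.05. In the citrate cycle, 9 of the 16 genes were below wild type in all 3 KO arrays and 0 above, against 20.6% and 23.2% of all genes, with a median log2 difference of -0.22. Suclg2, a succinate-CoA ligase subunit, gave 1087 in wild type against 517, 571 and 487 with KO, a log2 difference of -1.03 (SE 0.31). Sdha, the flavoprotein of succinate dehydrogenase, gave 4793 against 3695, 2687 and 3232, and Dlst, the E2 subunit of the oxoglutarate dehydrogenase complex, gave 1897 against 1636, 1087 and 1055. Among pentose phosphate genes, 1 of 6 was below and 1 above wild type in all KO arrays. That above was Rpe, ribulose phosphate epimerase, at 643 against 1065, 1221 and 926. Pgd, phosphogluconate dehydrogenase, gave 1085 against 1121, 725 and 431. Among the side branches 1 of 12 was below in all KO arrays, Pcx, pyruvate carboxylase, at 402 against 328, 165 and 177, and 2 were above, including Gpd2, the mitochondrial glycerol phosphate dehydrogenase, at 432 against 623, 457 and 621.

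**Figure D5:**
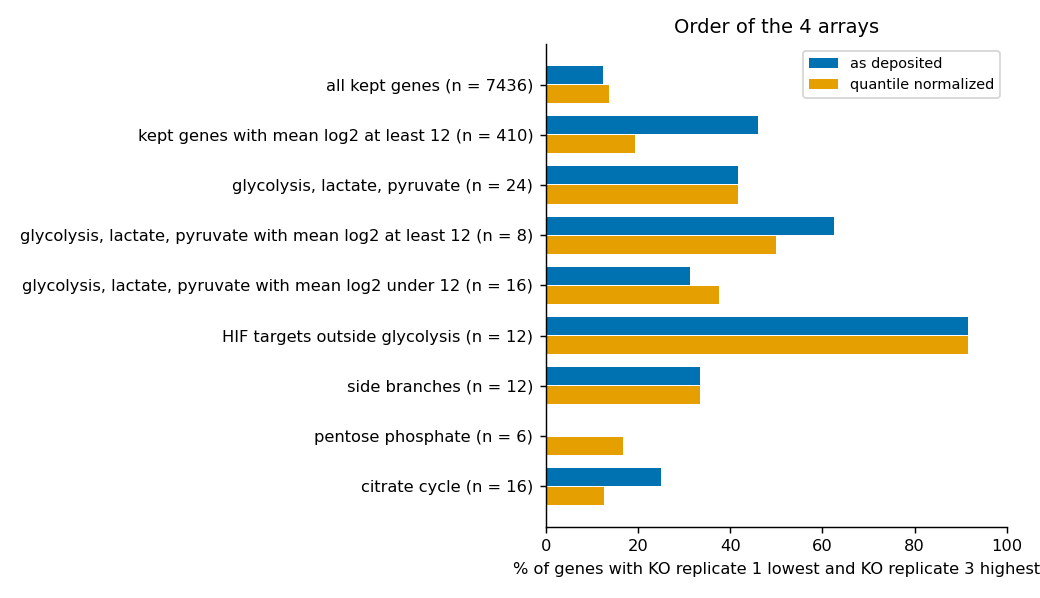
Bars give the percentage of tested genes for which KO replicate 1 was the lowest and KO replicate 3 the highest of the 4 arrays, as deposited (blue) and after quantile normalization (orange). The order was singled out after the values were seen. All tested genes stand at 12.5% as deposited, the 24 glycolysis, lactate and pyruvate genes at 41.7% under both scalings, and the 12 other HIF-1 targets at 91.7% under both.

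HIF-1 binds DNA at the core ACGTG or GCGTG, so the promoters of these genes were searched for both, on both strands. RefSeq windows of 250 bases before to 50 bases after a start were found for 33 of the 34 listed genes (52 windows, GRCm38.p6). At least 1 of the cores was in 38 of these windows (73.1%), against 56.6% of the windows of all genes on the array and 43.8% of all windows. ACGTG was in 42.3%, against 23.3% and 19.6%, and GCGTG in 53.8%, against 45.3% and 32.4%. The 6-letter E-box CACGTG, which contains ACGTG, was in 11.5%, against 9.11% and 7.15%. The median GC content was 60.5%, 59% and 52.7%. Windows of 1 gene can overlap, and a match is a description, not a binding site. Within the list, at least 1 was in 10 of 13 windows (76.9%) of the genes with KO replicate 1 lowest and KO replicate 3 highest, Slc2a3 having no window, and in 17 of 22 windows (77.3%) of the other genes tested.

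Windows of 4 genes with that order are shown, from glucose entry, lactate export, ATP production and lactate formation. They lie on the plus strand at chr4:119108495-119108794 for Slc2a1, chr11:120948817-120949116 for Slc16a3, chrX:106186850-106187149 for Pgk1 and chr7:46845554-46845853 for Ldha, the first of its windows by position. Capitals mark each ACGTG or GCGTG on either strand, and the 2 runs of CACGTG in Ldha are matches on both strands that overlap.
Slc2a1: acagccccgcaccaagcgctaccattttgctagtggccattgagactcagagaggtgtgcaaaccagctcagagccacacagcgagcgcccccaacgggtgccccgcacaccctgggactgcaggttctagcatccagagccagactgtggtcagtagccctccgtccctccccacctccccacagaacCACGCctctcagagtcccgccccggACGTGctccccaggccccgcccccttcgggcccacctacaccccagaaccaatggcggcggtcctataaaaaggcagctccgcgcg
Slc16a3: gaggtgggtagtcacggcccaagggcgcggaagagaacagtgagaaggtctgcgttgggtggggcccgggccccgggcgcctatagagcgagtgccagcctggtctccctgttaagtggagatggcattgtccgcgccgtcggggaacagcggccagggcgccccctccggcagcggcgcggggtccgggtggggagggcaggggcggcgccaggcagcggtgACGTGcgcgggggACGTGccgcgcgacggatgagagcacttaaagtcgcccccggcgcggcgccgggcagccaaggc
Pgk1: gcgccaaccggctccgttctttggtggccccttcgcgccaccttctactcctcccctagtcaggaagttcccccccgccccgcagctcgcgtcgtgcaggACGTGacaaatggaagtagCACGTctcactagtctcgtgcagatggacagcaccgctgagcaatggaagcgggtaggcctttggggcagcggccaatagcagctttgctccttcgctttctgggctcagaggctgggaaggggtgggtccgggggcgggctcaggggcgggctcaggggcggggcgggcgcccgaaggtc
Ldha: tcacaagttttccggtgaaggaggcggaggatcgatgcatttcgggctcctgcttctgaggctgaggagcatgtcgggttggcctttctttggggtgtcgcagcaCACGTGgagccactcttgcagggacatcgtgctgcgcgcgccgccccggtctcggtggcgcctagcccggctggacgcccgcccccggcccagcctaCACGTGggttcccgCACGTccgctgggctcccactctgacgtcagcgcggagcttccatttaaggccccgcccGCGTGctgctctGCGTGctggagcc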

How the data were processed

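The authors deposited linear MAS5 signal intensities, per the submitters' processing notes. Which MAS5 version and target were used is not given in the sources used here. The deposited arrays share a mean of about 500.2 after 2% of probe sets is removed from each tail, so no further scaling was applied. Of 22690 probe sets, 64 were controls, and 20380 of the rest had 1 gene in the platform annotation; symbols were updated through RefSeq GRCm38.p6. Intensities were turned into log2(signal + 14.4), where 14.4 is 0.1 times the median of all values. A gene's brightest probe set on average stood for it, and the 40% of genes with the lowest mean were left out.

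The genotype contrast was fitted by limma 3.58.1 (R 4.3.3). Its two-sided p-values were adjusted by Benjamini and Hochberg's method across 7436 genes. With 1 wild-type array the spread comes from the 3 KO arrays (2 residual and 5.23 prior degrees of freedom), and wild type is assumed to vary like them. The fit was tested on simulated arrays with independent noise and no array pairs, so that test does not show how it behaves on these arrays. The number of arrays limits the precision. Every member with a probe set could be named. SEs are given for the 12 members with the largest moderated t and for Slc2a1, chosen after its values were seen. Up to 3 tested genes are named from each other pathway list, and Car9 and Car12, left out by the filter, are named as well. The members and lists were chosen with earlier results of these data known.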

Additional observations from a re-analysis of the deposited data

How the results depend on the processing

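No gene of the list was called under any of the 15 alternatives. Almost none of all genes were called either, so this does not set the list apart. The median log2 difference of the list stayed below 0 in each alternative, between -0.42 and -0.07. The number of genes below wild type in every KO array was 8 to 13 of 20 to 29 genes tested under the alternatives that kept all KO arrays and 1 value per gene. The share of all genes was 18.4% to 23.8% under these alternatives. With every probe set fitted on its own it was 21 of 56 probe sets, against 20.9% of all probe sets, with 2 above. The number above was 2 without a filter, against 25.2% of all genes, and 0 with the lowest 60% left out, against 22.5%. Leaving out 1 KO array gave 10 to 20 genes below, 1 to 3 above and medians of -0.32 to -0.07, with 20 below without KO replicate 3 (28.6% of all genes), 11 without KO replicate 2 (26.02%) and 10 below and 3 above without KO replicate 1 (34.9% and 35.7%). With 1 KO array left out, the log2 difference ran from -1.18 to 0.054 for Slc16a3, -1.16 to 0.49 for Slc2a1, -0.85 to 0.18 for Slc2a3, -0.51 to 0.30 for Hk2, -0.31 to 0.21 for Pgam1, -0.27 to 0.27 for Ldha and -0.93 to 0.17 for Pdk1, the highest value being without KO replicate 1. For Aldoa it ran from -0.33 without KO replicate 3 to 0.35 without KO replicate 1. Aldoa was also at -0.12 after quantile normalization, and Pgam1 and Ldha at 0.019 and 0.025 after median centring; the cause was not tested. With the array pairs as a block Pgk1 was at -0.39 and Aldoa at -0.60, a fit that equals the difference of KO replicate 1 from wild type. No paired analysis by replicate number was possible because the groups share fewer than 2 numbers. Quantile normalization and median centring put the median of all tested genes at 0.02 and 0.03. Signals at background set only a bound, which concerns Pgam2, Pdk4, Eno3, all probe sets of Pfkfb2 and the dimmer ones of Slc2a3, Pfkp and Aldoc, in at least 1 array each.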
